A study of Mus musculus with 12 samples.

Results

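The Ube2 genes encode the ubiquitin-conjugating enzymes, and their transcripts were followed through all 12 libraries of a single-oocyte RNA-seq series. Members were the protein-coding genes of GENCODE mouse release 21 whose symbol starts with Ube2. The rule gave 37 of the 55573 genes in the count files, and all 37 were listed for every library, some of them with 0 counts. By symbol the list also holds Ube2cbp, which is known as an E3-type protein that binds an E2, and the E2 variants Ube2v1 and Ube2v2, which lack the catalytic cysteine.

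The study measured poly(A) RNA of mouse germinal vesicle (GV) oocytes, which are fully grown and still have an intact nuclear envelope. According to the methods, 8 oocytes were taken from a B6D2F1 female at 12 weeks of age and collected in M2 medium with 2.5 μM milrinone, and no genotype or treatment differed between groups. Of these, 6 whole oocytes formed 3 groups of 2 libraries, amplified for 10, 14 and 18 cycles. Lysates of the other 2 oocytes were diluted to 1/2, 1/4 and 1/8 of an oocyte and amplified for 18 cycles, with 2 libraries per fraction, and spike-in RNA of the External RNA Controls Consortium (ERCC) was added to every library. Replicates of whole oocytes were different oocytes, while nothing beyond the replicate number tells which fractions came from the same oocyte. With a single female, p-values measure only the spread between these libraries.

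The 10-cycle libraries held 11597144 and 9189672 counts on genes and the 14-cycle libraries 12349577 and 13806199, whereas the whole oocytes at 18 cycles held 3017069 and 1706478. Among the fractions, 1/2 had 4024670 and 3598549, 1/4 had 4027907 and 5049518, and 1/8 had 11404262 and 1702062. Cycle number, depth, oocyte and preparation cannot be told apart in the whole oocytes.

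Ubiquitin is activated by an E1 enzyme, passed to the cysteine of an E2 enzyme and then transferred to a substrate with the help of an E3 ligase. The E2 largely sets which lysine of ubiquitin is linked and so what kind of chain is built, and some E2 enzymes carry the related modifiers SUMO, NEDD8 or ISG15 in place of ubiquitin. In oocytes the pathway is known for the anaphase-promoting complex, an E3 ligase that helps to hold the GV arrest and later drives the exit from meiosis.

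The Ube2 genes together took 0.311% and 0.323% of the counts on genes at 10 cycles, 0.303% and 0.318% at 14 cycles, but 0.398% and 0.313% in whole oocytes at 18 cycles. The fractions had 0.419% and 0.417% for 1/2, 0.333% and 0.367% for 1/4, then 0.372% and 0.429% for 1/8. The summed level was thus between 3031 and 4290 CPM (counts after scaling every library to the same total on genes) in every library, and the whole oocytes at 18 cycles overlapped those at 10 cycles. Between 29 and 34 of the 37 genes had at least 5 counts in a library, and between 28 and 31 when all libraries were drawn down to 1702062 counts. Ube2dnl2, an X-linked relative of the Ube2d genes, had 0 counts in all 12 libraries, which in the deepest library allows up to 0.217 CPM when counting error alone is considered. Ube2l6, the E2 for ISG15, had 3 counts in 1 library at 14 cycles and 0 in the other 11. Ube2d2b had 2 counts in 1 library at 10 cycles, 1 count in 1 library at 14 cycles and 0 elsewhere.

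Levels were compared between genes per kilobase (kb) of merged exons, as the mean over the 6 whole oocytes. Ube2a had the highest mean, 99.9 ± 47.2 CPM per kb (SD, n = 6), followed by Ube2c with 97.3 ± 53.5, Ube2g1 with 90.8 ± 20.2 and Ube2t with 82.1 ± 7.7 CPM per kb. At 10 cycles the order was Ube2t with 83.7 CPM per kb, Ube2g1 with 74.2, Ube2a with 70.3 and Ube2c with 64.0, so that Ube2a and Ube2c led only through the 2 libraries at 18 cycles. The 4 means over all 6 oocytes differed by less than the SD of Ube2a, so their order is not settled by these oocytes. Ube2b came next, at 49.2 ± 8.32 CPM per kb (SD, n = 6). Its range of 41.2 to 64.9 CPM per kb lay below the 73.9 to 93.6 of Ube2t and overlapped the 62.6 to 126 of Ube2g1. Within each of the 6 whole oocytes, however, Ube2g1 had more CPM per kb than Ube2b. With the longest transcript as the length, Ube2a stayed first at 131 CPM per kb, Ube2t moved up to 122 and Ube2b had 58.3, rank 7. Ube2d3 took the most CPM of all at 10 and 14 cycles, 690 to 773, but its annotated exons cover 24499 bases, and its mean per length was 24.8 ± 8.38 CPM per kb (SD, n = 6). At the other end, 6 genes had means of at most 0.579 CPM per kb, namely Ube2dnl1, Ube2ql1, Ube2v2, Ube2d2b, Ube2l6 and Ube2dnl2.

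**Figure D1:**
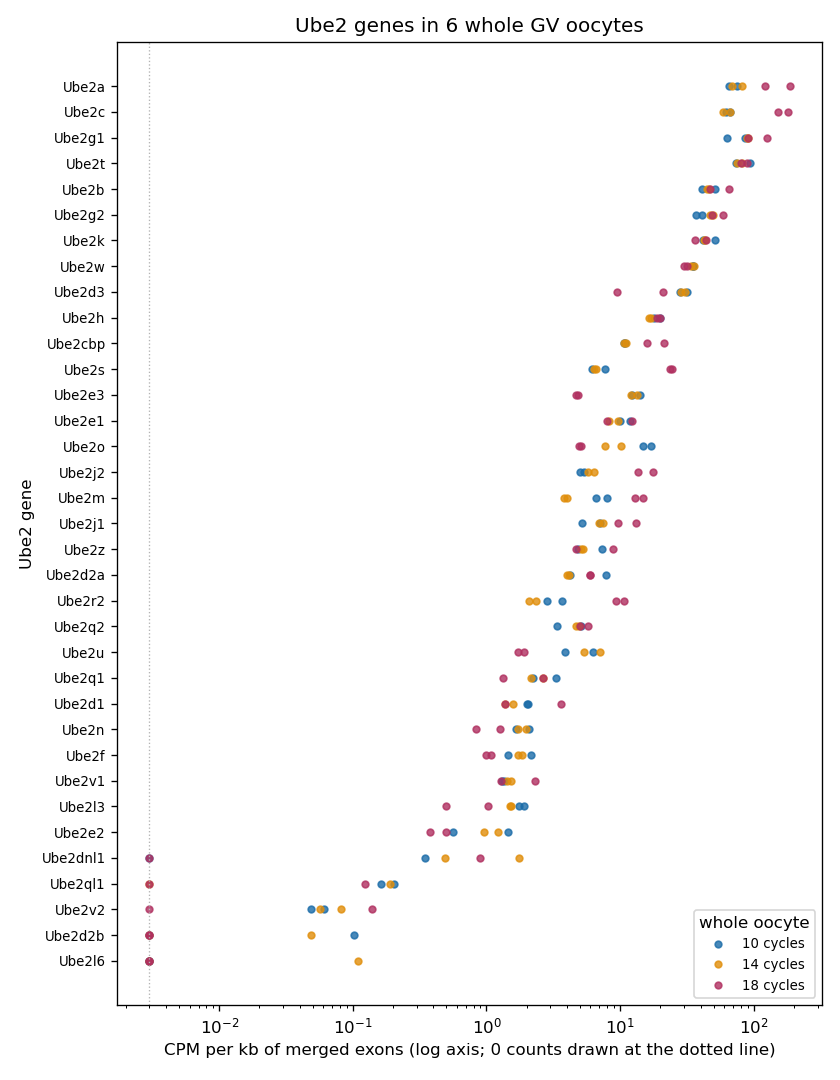
Level of 35 detected Ube2 genes in the 6 whole oocytes, in CPM per kb of merged exons on a log axis, with each point 1 library and genes in order of their mean. Ube2a, Ube2c, Ube2g1 and Ube2t are at the top, with means of 82.1 to 99.9, and the 2 libraries at 18 cycles lie apart from the other 4 for Ube2c, Ube2s and Ube2e3.

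Changes were tested by edgeR's quasi-likelihood test across all genes that reached 5 counts in 2 or more libraries of a fit, at an adjusted p under 0.01 (Benjamini-Hochberg over all genes tested). Size factors were the median ratio over genes, so that changes are relative to other genes, and the median over all genes tested can differ from 0. This filter kept 34 Ube2 genes among the whole oocytes and 31 at 18 cycles. Between 14 and 10 cycles 0 of 34 Ube2 genes changed, beside 0% of the 17532 genes tested. At an unadjusted p under 0.05 edgeR had 2 Ube2 genes and 513 genes in all, 2.93%, and DESeq2 called 0 Ube2 genes and 2 genes in all. Between 18 and 10 cycles 8 of 34 were higher, 23.5%, against 12.3% of all genes tested, and 2 were lower, 5.88%, against 10.8%. The median log2 fold change was 0.47 over the Ube2 genes and -0.29 over all genes tested. Leaving out 1 of 2 libraries leaves a group of 1, whose spread is taken from the other groups. Shares over all genes are not given for such fits, so their counts do not tell the Ube2 genes from other genes. Without replicate 1 at 10 cycles only 4 Ube2 genes passed, all higher, and without replicate 2 at 10 cycles 6 did, all higher. Of the 2 lower genes, Ube2e3 did not pass without replicate 2 at 14 cycles, which left 1 lower. Neither passed without replicate 1 at 18 cycles, where the 1 lower gene was Ube2d3 in their place. Size factors from the ERCC molecules, chosen after seeing the data, moved the median of all genes to 1.96 and called 8348 genes higher and 0 lower, among them 25 Ube2 genes. All 34 log2 fold changes of the Ube2 genes were then above 0, also those of the 10 genes below 0 with the median ratio.

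The fractions were compared with the same whole oocytes at 18 cycles, and the 3 comparisons therefore share their reference. Fractions and whole oocytes came from different oocytes, so amount and oocyte cannot be told apart in these comparisons. In 1/2, 0 of 31 Ube2 genes changed, against 0.122% of the 14788 genes tested in either direction. At an unadjusted p under 0.05 edgeR had 5 Ube2 genes there, 16.1%, near the 13.1% of all genes. DESeq2 called 0 Ube2 genes, with 0.697% of all genes higher and 0.331% lower. In 1/4, 0 of 31 changed, against 0.460% of all genes tested, with 9 Ube2 genes at an unadjusted p under 0.05 in edgeR, 29.0%, against 15.8% of all genes. DESeq2 called Ube2r2 lower there, with 0.473% of all genes higher and 1.16% lower. In 1/8, 1 Ube2 gene was higher, 3.23%, against 7.06% of all genes tested, and 6 were lower, 19.4%, against 8.69%. The median over the Ube2 genes was -0.05 there, beside 0.03 over all genes tested. Shares over all genes are not given for the fits without 1 library. Without replicate 2 of 1/8, 2 Ube2 genes passed in that comparison, Ube2m and Ube2s, both lower. The number higher was 0 there and also 0 without replicate 2 of the whole oocytes, without either library of 1/2 and without either library of 1/4. Between 1/8 and 1/2, 0 of 31 Ube2 genes were higher, against 2.08% of all genes tested, and 2 were lower, 6.45%, against 3.86%, with 8 at an unadjusted p under 0.05 in edgeR, 25.8%, near the 29.0% of all genes. DESeq2 had 0 Ube2 genes higher and 4 lower, against 3.64% and 6.15% of all genes. Both calls by edgeR were lost without any 1 of the 4 libraries of 1/8 and 1/2. With whole oocytes at 10 cycles as the reference, chosen after seeing the data, 8 of 34 Ube2 genes passed in 1/2, 7 of them higher, against 9.3% of all genes tested higher and 6.88% lower. In 1/4, 4 of 34 passed with that reference, all higher, against 5.82%. With it 0 Ube2 genes changed in 1/8, as did 0 of all 18041 genes tested, so this count is no result about the Ube2 genes. There were 7 of 34 Ube2 genes at an unadjusted p under 0.05 in edgeR, against 12.6% of all genes, and this reference was not run in DESeq2.

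Ube2c and Ube2s work with the anaphase-promoting complex, Ube2c by starting the chain and Ube2s by extending it, and both were higher at 18 than at 10 cycles and lower in 1/8 than in whole oocytes. Ube2c (ENSMUSG00000001403, GRCm38 chromosome 2 from 164769898 to 164778822, plus strand) had 161 and 172 CPM at 10 cycles, 153 and 172 at 14 cycles, but 467 and 392 at 18 cycles. Its fractions had 377 and 309 CPM for 1/2, 300 and 296 for 1/4, then 197 and 184 for 1/8. The whole oocytes at 18 cycles were the highest libraries, and 1/8 lay just above the oocytes at 10 and 14 cycles. Ube2c had a log2 fold change of 1.63 between 18 and 10 cycles (SE 0.19, adjusted p = 1.87e-04 from edgeR) and of -1.37 between 1/8 and whole oocytes (SE 0.27, adjusted p = 8.17e-04 from edgeR), the latter lost without replicate 2 of 1/8. Its exons overlap those of Tnnc2 on the opposite strand over 22.8% of their bases, and whether the counting used strand was not settled.

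Ube2s (ENSMUSG00000060860, chromosome 7 from 4794546 to 4812590, minus strand) had 31.6 and 39.7 CPM at 10 cycles, 34.1 and 32.6 at 14 cycles, but 126 and 121 at 18 cycles. It had 117 and 96.4 CPM for 1/2, 79.4 and 75.7 for 1/4, then 52.4 and 38.2 for 1/8. Its levels in whole oocytes at 18 cycles lay above all other libraries, and no library of 1/4 reached those of 1/2. The log2 fold change of Ube2s was 2.05 between 18 and 10 cycles (SE 0.22, adjusted p = 1.27e-04 from edgeR). It was -1.62 between 1/8 and whole oocytes (SE 0.31, adjusted p = 5.35e-04 from edgeR) and -1.38 between 1/8 and 1/2 (SE 0.30, adjusted p = 0.0043 from edgeR). Against whole oocytes at 10 cycles the value in 1/8 was 0.42 for Ube2s and 0.25 for Ube2c, and neither passed the threshold. In 1/2 and in 1/4 both genes passed against that reference.

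**Figure D2:**
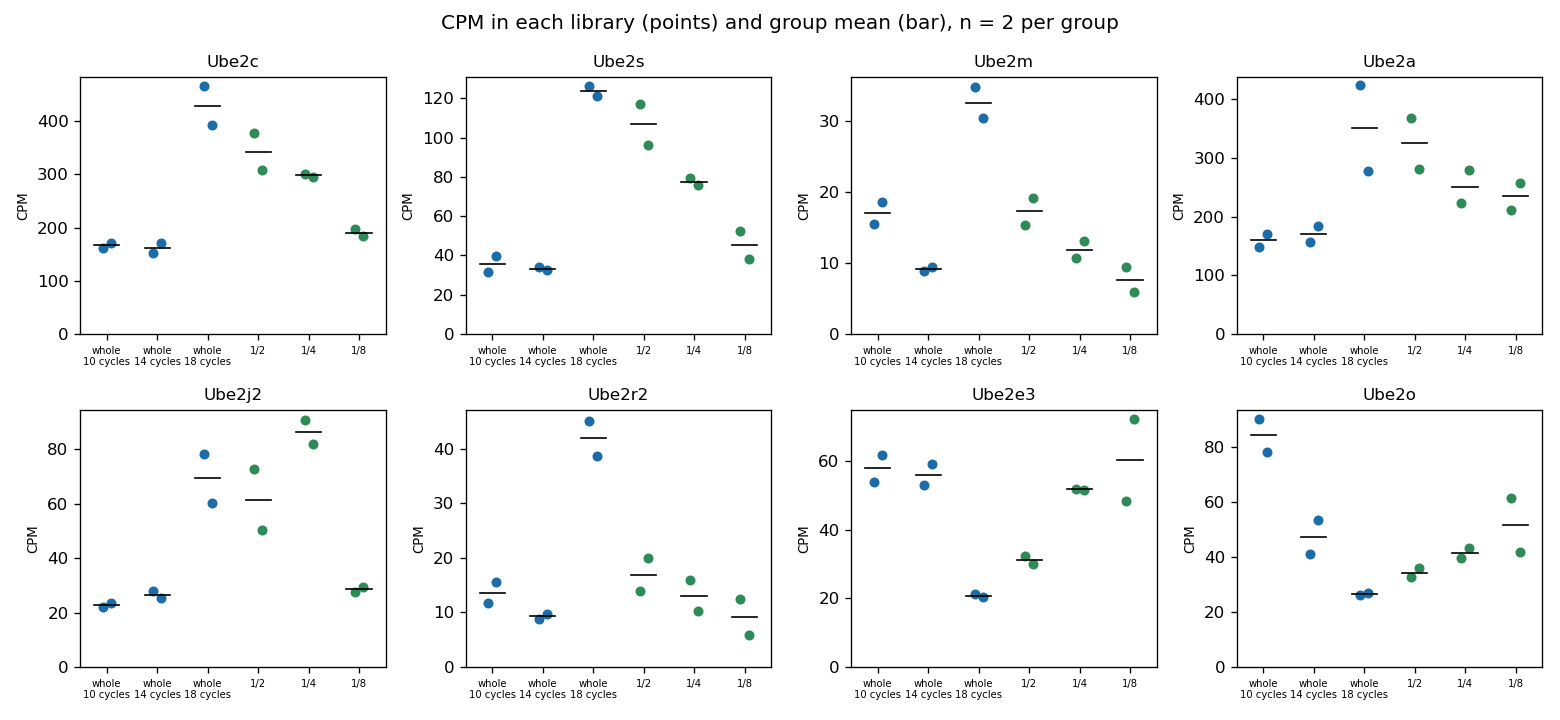
CPM of 8 Ube2 genes that passed the threshold in edgeR in at least 1 median ratio comparison, with each point 1 library and a bar at the mean of the 2 libraries of a group. Ube2c, Ube2s, Ube2m, Ube2a, Ube2j2 and Ube2r2 were higher in whole oocytes at 18 cycles than at 10 cycles and Ube2e3 and Ube2o lower, and with ERCC size factors the signs of Ube2e3 and Ube2o turned.

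Ube2m and Ube2f carry NEDD8 to the cullin-RING ligases, and Ube2m alone of these 2 passed the threshold in edgeR with the median ratio. Ube2m (ENSMUSG00000005575, chromosome 7 from 13035120 to 13038275, minus strand) had 15.5 and 18.7 CPM at 10 cycles, 8.91 and 9.49 at 14 cycles, but 34.8 and 30.5 at 18 cycles. It had 15.4 and 19.2 CPM for 1/2, 10.7 and 13.1 for 1/4, then 9.47 and 5.88 for 1/8, the last on 10 counts. The libraries at 14 cycles were below both at 10 cycles, with a log2 fold change of -0.93 (SE 0.28) that did not pass the threshold. Ube2m was higher at 18 than at 10 cycles by a log2 fold change of 1.19 (SE 0.29, adjusted p = 0.00846 from edgeR), which did not pass with TMM scaling or without any 1 of the 6 whole oocytes. It was lower in 1/8 than in whole oocytes by -2.21 (SE 0.44, adjusted p = 9.00e-04 from edgeR), while against whole oocytes at 10 cycles the value was -1.02 and did not pass. Ube2f (ENSMUSG00000034343, chromosome 1 from 91250304 to 91290337, plus strand) had 19.2 and 12.9 CPM at 10 cycles, 15.3 and 16.2 at 14 cycles, 9.61 and 8.79 at 18 cycles, 9.44 and 9.17 for 1/2, 6.21 and 9.31 for 1/4, and 14.5 and 14.1 for 1/8. Its log2 fold change between 18 and 10 cycles was -0.54 (SE 0.35, adjusted p = 0.255 from edgeR), of the opposite sign to that of Ube2m. With ERCC size factors it was 1.74 (adjusted p = 0.00714 from edgeR) and passed as higher, as did 47.6% of all genes tested. With the median ratio over genes, Ube2f passed in none of the comparisons in edgeR or DESeq2.

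The group for K48 chains, SCF ligases and degradation at the endoplasmic reticulum (ER) had 3 of 6 genes higher at 18 than at 10 cycles, against 12.3% of all genes tested, and 2 of 6 lower in 1/8 than in whole oocytes, against 8.69%. Ube2r2, a paralog of the SCF partner Cdc34, is on chromosome 4 from 41135743 to 41193380 (ENSMUSG00000036241, plus strand). It had 11.8 and 15.5 CPM at 10 cycles, 8.75 and 9.78 at 14 cycles, 45.1 and 38.7 at 18 cycles, 13.9 and 20.0 for 1/2, 15.9 and 10.3 for 1/4, and 12.4 and 5.88 for 1/8. Only the whole oocytes at 18 cycles stood above the rest. Ube2r2 had a log2 fold change of 1.88 between 18 and 10 cycles (SE 0.29, adjusted p = 7.59e-04 from edgeR), lost without replicate 1 at 10 cycles. In 1/8 it was -2.29 against whole oocytes (SE 0.45, adjusted p = 7.87e-04 from edgeR), lost without replicate 2 of 1/8, and -0.41 against whole oocytes at 10 cycles.

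Ube2j2 (ENSMUSG00000023286, chromosome 4 from 155943831 to 155959604, plus strand), an ER-bound E2, had 22.2 and 23.5 CPM at 10 cycles, 27.9 and 25.3 at 14 cycles, 78.2 and 60.4 at 18 cycles, 72.6 and 50.3 for 1/2, 90.9 and 81.8 for 1/4, and 27.7 and 29.4 for 1/8. Here the libraries of 1/4, not the whole oocytes at 18 cycles, were the highest. Ube2j2 was higher at 18 than at 10 cycles by a log2 fold change of 1.86 (SE 0.23, adjusted p = 2.55e-04 from edgeR). In 1/8 it was lower than in whole oocytes by -1.48 (SE 0.33, adjusted p = 0.00225 from edgeR), a call lost without either library of 1/8 and without replicate 1 of the whole oocytes. Against whole oocytes at 10 cycles the value in 1/8 was 0.37, while in 1/2 and in 1/4 Ube2j2 passed against that reference. Its ER-bound relative Ube2j1, singled out after its values were seen, had 25.1 and 18.4 CPM at 10 cycles and 46.4 and 34.0 at 18 cycles. Ube2j1 had a log2 fold change of 1.15 (SE 0.26, adjusted p = 0.00646 from edgeR), which did not pass with TMM scaling and, of the 6 whole oocytes, held only when replicate 2 at 18 cycles was the one left out. Ube2g1 (ENSMUSG00000020794, chromosome 11 from 72607283 to 72686481, plus strand) had 393 and 287 CPM at 10 cycles, 417 and 408 at 14 cycles, 575 and 414 at 18 cycles, 570 and 701 for 1/2, 510 and 530 for 1/4, and 501 and 710 for 1/8. Its log2 fold change of 0.80 between 18 and 10 cycles (SE 0.21, adjusted p = 0.0133 from edgeR) did not pass the threshold. Of the other members, Ube2g2 had 65.8 to 148 CPM and Ube2k 271 to 573 CPM over the 12 libraries. Between 18 and 10 cycles DESeq2 called Ube2g1 and Ube2g2 higher as well, and both passed in edgeR without replicate 2 at 18 cycles, which leaves 1 library there.

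The group for DNA repair and chromatin holds Ube2a and Ube2b, the mouse counterparts of yeast Rad6, and Ube2t of the Fanconi anemia pathway. Ube2a (ENSMUSG00000016308, chromosome X from 36873900 to 36884222, plus strand) had 148 and 171 CPM at 10 cycles, 157 and 184 at 14 cycles, 424 and 278 at 18 cycles, 369 and 281 for 1/2, 224 and 279 for 1/4, and 212 and 258 for 1/8. All libraries at 18 cycles, fractions included, lay above the 4 at 10 and 14 cycles. Ube2a was higher at 18 than at 10 cycles in whole oocytes by a log2 fold change of 1.39 (SE 0.22, adjusted p = 8.66e-04 from edgeR), a call lost without replicate 1 at 10 cycles. Ube2b (ENSMUSG00000020390, chromosome 11 from 51985497 to 52000762, minus strand) had 87.7 and 109 CPM at 10 cycles, 97.8 and 95.5 at 14 cycles, 138 and 99.6 at 18 cycles, 196 and 204 for 1/2, 97.3 and 105 for 1/4, and 145 and 200 for 1/8. Ube2t (ENSMUSG00000026429, chromosome 1 from 134962565 to 134974162, plus strand) had 357 and 453 CPM at 10 cycles, 362 and 393 at 14 cycles, 428 and 390 at 18 cycles, 657 and 543 for 1/2, 361 and 413 for 1/4, and 580 and 565 for 1/8. For both genes the libraries of 1/2 and 1/8 lay above those of 1/4. With the median ratio neither passed in edgeR between cycle numbers, between a fraction and whole oocytes at 18 cycles or between 1/8 and 1/2, and the log2 fold changes between 18 and 10 cycles were 0.53 (SE 0.21) for Ube2b and 0.27 (SE 0.21) for Ube2t.

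Of the 10 genes grouped as promiscuous and chain-initiating, 8 could be tested between cycle numbers, and 1 passed, being lower at 18 cycles, against 10.8% of all genes tested. Ube2d3 (ENSMUSG00000078578, chromosome 3 from 135438149 to 135468198, plus strand), which works with many E3 ligases, had 773 and 690 CPM at 10 cycles, 698 and 743 at 14 cycles, but 514 and 232 at 18 cycles. It had 648 and 724 CPM for 1/2, 577 and 708 for 1/4, then 823 and 807 for 1/8. Both whole oocytes at 18 cycles were below all other libraries, but they differed from each other more than the libraries of any other group. The log2 fold change of Ube2d3 between 18 and 10 cycles was -0.73 (SE 0.28, adjusted p = 0.0657 from edgeR) and between 1/8 and whole oocytes 0.95 (SE 0.30, adjusted p = 0.0225 from edgeR). Both passed without replicate 1 of the whole oocytes at 18 cycles, which leaves only the library of 232 CPM with its spread taken from the other groups. DESeq2 called Ube2d3 higher in 1/8. With ERCC size factors its log2 fold change between 18 and 10 cycles was 1.64 (adjusted p = 0.00446 from edgeR). It thus passed as higher with those size factors, as did 47.6% of all genes tested. Ube2e3 (ENSMUSG00000027011, chromosome 2 from 78868124 to 78921293, plus strand) had 54.1 and 61.9 CPM at 10 cycles, 53.0 and 59.1 at 14 cycles, 21.2 and 20.5 at 18 cycles, 32.3 and 30.0 for 1/2, 51.9 and 51.7 for 1/4, and 48.3 and 72.3 for 1/8. This order from whole oocytes at 18 cycles to 1/4 was the reverse of that of Ube2s. Ube2e3 was lower at 18 than at 10 cycles by a log2 fold change of -1.22 (SE 0.24, adjusted p = 0.00308 from edgeR), a call lost without either library at 10 cycles, replicate 2 at 14 cycles or replicate 1 at 18 cycles. In 1/8 it was higher than in whole oocytes by 1.32 (SE 0.36, adjusted p = 0.00898 from edgeR), and this call held only when replicate 1 of 1/8 was the library left out. Against whole oocytes at 10 cycles the value of Ube2e3 in 1/8 was 0.09. Of the other members, Ube2w had 124 to 277 CPM over the 12 libraries, Ube2d2a 46.3 to 113, Ube2e1 35.7 to 71.1, Ube2d1 5.97 to 15.9 and Ube2e2 0.993 to 6.75, and Ube2dnl1 had at most 16 counts.

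Of the 8 other ubiquitin E2 enzymes, 1 passed between 18 and 10 cycles, being lower, against 10.8% of all genes tested. Ube2o (ENSMUSG00000020802, chromosome 11 from 116537740 to 116581447, minus strand), a large protein with both E2 and E3 activity, had 90.0 and 78.1 CPM at 10 cycles, 41.0 and 53.4 at 14 cycles, 26.2 and 27.0 at 18 cycles, 32.8 and 35.8 for 1/2, 39.5 and 43.2 for 1/4, and 61.5 and 41.7 for 1/8. Its level at 14 cycles already lay below both libraries at 10 cycles, with a log2 fold change of -0.87 (SE 0.22) that did not pass. Ube2o was lower at 18 than at 10 cycles by a log2 fold change of -1.40 (SE 0.24, adjusted p = 0.00131 from edgeR), a call lost without either library at 10 cycles or replicate 1 at 18 cycles. With ERCC size factors the log2 fold changes of Ube2o and Ube2e3 between 18 and 10 cycles were 0.84 and 1.01, and neither passed. Ube2h had 75.5 to 104 CPM over the 12 libraries, Ube2z 18.8 to 45.4, Ube2q2 10.3 to 24.6, Ube2q1 8.29 to 23.7, Ube2l3 2.22 to 11.2 and Ube2u 1.99 to 10.8, and Ube2ql1 had at most 21 counts. Ube2cbp, which is in no group, had 12.5 to 38.1 CPM and a log2 fold change of 1.05 between 18 and 10 cycles that did not pass (SE 0.29, adjusted p = 0.0165 from edgeR), though DESeq2 called it higher and it passed in edgeR without replicate 1 at 18 cycles, which leaves 1 library there.

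K63 chains are built by Ube2n together with Ube2v1 or Ube2v2, and all 3 genes had few counts. Ube2n (ENSMUSG00000074781, chromosome 10 from 95515145 to 95545657, plus strand) had 7.07 and 8.81 CPM at 10 cycles, 7.29 and 8.33 at 14 cycles, 5.30 and 3.52 at 18 cycles, 7.95 and 5.28 for 1/2, 6.21 and 7.53 for 1/4, and 8.24 and 8.23 for 1/8. It passed in none of the median ratio comparisons in edgeR or DESeq2, and its log2 fold change between 18 and 10 cycles was -0.56 (SE 0.45, adjusted p = 0.35 from edgeR). Ube2v1 had 1.76 to 6.3 CPM over the 12 libraries and Ube2v2 at most 8 counts in a library.

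Reads that match several loci are not counted, so sequence shared between genes bears on these levels. Of the 37 genes, 8 had no 32-base word in common with annotated transcripts of other genes, among them Ube2a, Ube2b and Ube2o, and 11 shared over 10% of their distinct words. Ube2v1 shared 66.03%, and the overlapping gene Gm20431 alone held 58.58%. Ube2h shared 50.43%, nearly all with the lincRNA Gm26526. For Ube2c the share was 24.64%, for Ube2j2 14.15%, for Ube2n 10.05% and for Ube2v2 6.31%. Exons of 9 members are overlapped by another gene, over 69.1% of the bases for Ube2v1 and 28.6% for Ube2l3. How far this lowered the counts was not tested.

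With ERCC size factors, which scale each library to the added RNA, the question was how far the Ube2 transcripts fell with the amount of oocyte. In 1/2, 24 of 31 Ube2 genes were lower, against 52.0% of all genes tested, in 1/4 31 of 31, against 69.7%, and in 1/8 31 of 31, against 87.5%. All 31 log2 fold changes were below 0 in every fraction. Their medians were -2.02 for 1/2, -2.97 for 1/4 and -5.07 for 1/8, beside -2.00, -2.69 and -4.92 over all genes tested. These medians lay below what dilution to 1/2, 1/4 and 1/8 alone would give. The whole oocytes at 18 cycles are the shared reference. With ERCC size factors they lay above those at 10 cycles by a median of 1.96 over all genes. How much of the fall came from this reference was not tested. The genes that did not pass in 1/2 were Ube2b, Ube2d3, Ube2e2, Ube2e3, Ube2n, Ube2u and Ube2v1. For the fits without 1 library, shares over all genes are not given. The count in 1/2 was 4 of 31 without replicate 2 of 1/2 and 11 of 31 without replicate 1 of the whole oocytes, which had only 1611 and 1474 ERCC counts to set their scale.

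Ube2s had 3174 and 1967 ERCC-normalized counts in whole oocytes, 713 and 411 for 1/2, 261 and 185 for 1/4, and 32.1 and 21.4 for 1/8. Ube2r2 had 1139 and 630 in whole oocytes, 84.6 and 85.4 for 1/2, 52.3 and 25.2 for 1/4, and 7.57 and 3.29 for 1/8. For both genes no fraction overlapped the whole oocytes, and Ube2r2 had the lowest log2 fold change of the 31 genes in 1/8, -7.26 (SE 0.68, adjusted p = 8.73e-14 from edgeR). Ube2d3 had 12980 and 3782 ERCC-normalized counts in whole oocytes, 3944 and 3091 for 1/2, 1898 and 1732 for 1/4, and 504 and 451 for 1/8. For Ube2d3 the libraries of 1/2 overlapped the whole oocytes. Its log2 fold change was -1.25 in 1/2 (SE 0.48, adjusted p = 0.019 from edgeR), -2.21 in 1/4 (SE 0.49, adjusted p = 8.46e-05 from edgeR) and -4.13 in 1/8 (SE 0.53, adjusted p = 5.27e-10 from edgeR).

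**Figure D3:**
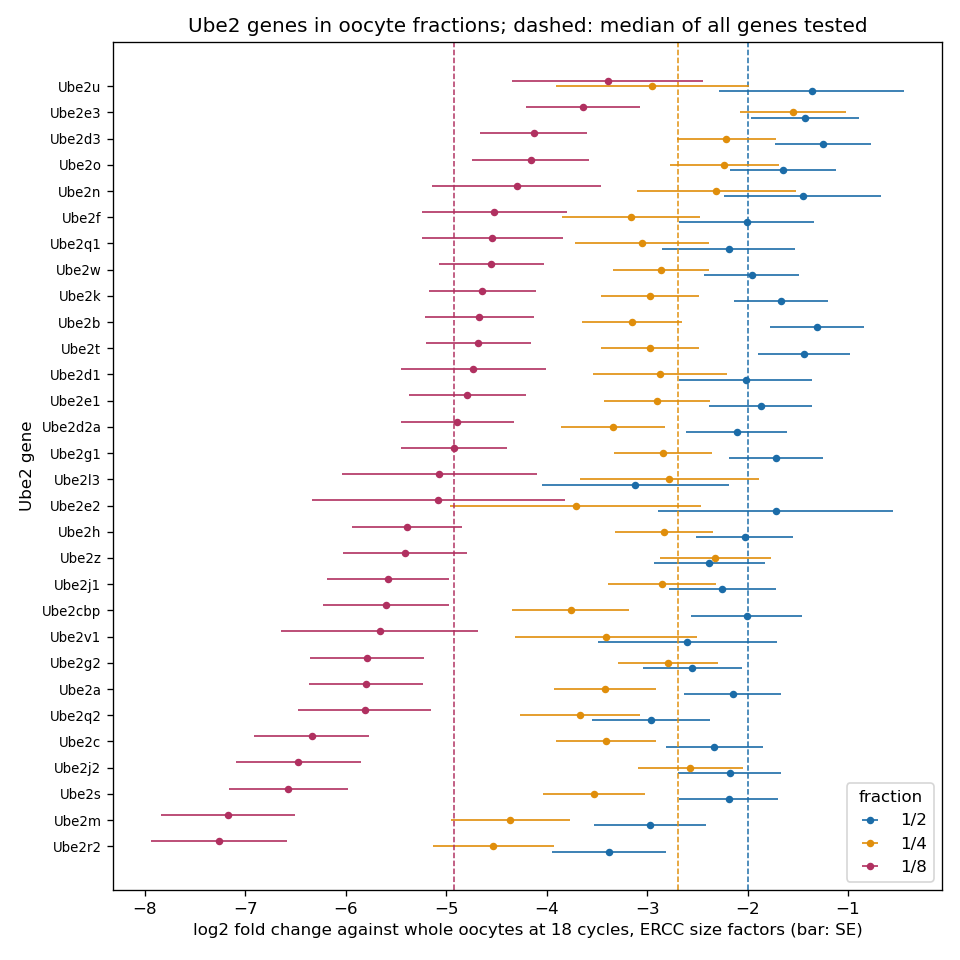
Log2 fold change of 30 Ube2 genes in 1/2, 1/4 and 1/8 of an oocyte against whole oocytes at 18 cycles with ERCC size factors, with bars of 1 SE and a dashed line at the median of all genes tested. The values in 1/8 run from -7.26 for Ube2r2 to -3.39 for Ube2u, around the median of -4.92 for all genes.

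Other genes of the pathway were counted from 5 lists, with the median ratio over genes. The lists were not picked for how they moved, but earlier results of these data were known. Between 14 and 10 cycles 0 of the 71 genes tested passed in edgeR, with 3 at an unadjusted p under 0.05, against 2.93% of all genes. DESeq2 called 0 of them, against 0.0057% of all genes in each direction. In 1/2, 0 of 70 passed in edgeR, with 9 at an unadjusted p under 0.05, against 13.1% of all genes. By DESeq2 1 was higher, where 0.697% of all genes were higher and 0.331% lower. In 1/4, 0 of 70 passed in edgeR, with 15 at an unadjusted p under 0.05, against 15.8% of all genes. By DESeq2 0 were called, where 0.473% of all genes were higher and 1.16% lower. For the counts that follow, 12.3% of all genes tested were higher and 10.8% lower between 18 and 10 cycles, 7.06% higher and 8.69% lower in 1/8 against whole oocytes, and 2.08% higher and 3.86% lower in 1/8 against 1/2. Of the E1 enzymes, 2 of 9 passed between 18 and 10 cycles, both lower. Uba3, a subunit of the E1 for NEDD8, had 68.9 and 68.0 CPM at 10 cycles and 19.9 and 26.4 at 18 cycles, a log2 fold change of -1.32, and Uba6 had one of -1.06. In 1/8, 0 of 8 E1 enzymes passed in edgeR against whole oocytes and 0 against 1/2. At an unadjusted p under 0.05 there were 4 and 1, against 39.2% and 29.0% of all genes. DESeq2 called 0 in both, where 8.48% and 3.64% of all genes were higher and 10.7% and 6.15% lower.

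Of the ubiquitin and ubiquitin-like modifiers, 4 of 11 were higher between 18 and 10 cycles, against 12.3% of all genes tested, and 3 lower, against 10.8%. Nedd8 went from 77.9 and 87.3 to 163 and 125 CPM, a log2 fold change of 1.06, and Sumo3 from 136 and 155 to 241 and 239 CPM, 0.99. In 1/8, 3 modifiers were higher than in whole oocytes, where 7.06% of all genes were, and 1 lower, where 8.69% were, and against 1/2 only Fau passed, being lower. Of the E2 enzymes and E2-like proteins with other symbols, 2 of 9 were higher at 18 than at 10 cycles and 1 lower. Cdc34, the SCF partner related to Ube2r2, had 86.7 and 97.2 CPM at 10 cycles, 211 and 202 at 18 cycles, and 87.6 and 69.9 for 1/8, with log2 fold changes of 1.43 between cycles and -1.58 in 1/8. Cdc34b had a log2 fold change of 2.49 between 18 and 10 cycles, and the giant E2 and E3 protein Birc6 one of -0.92. In 1/8, Cdc34 and Cdc34b were the 2 that passed against whole oocytes and against 1/2, lower in both.

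The list for the anaphase-promoting complex, which uses Ube2c and Ube2s, holds its subunits and activators and also inhibitors. Of its genes, 9 of 18 were higher and 3 lower between 18 and 10 cycles, beside 12.3% and 10.8% of all genes tested. In 1/8, 2 were higher and 3 lower than in whole oocytes, beside 7.06% and 8.69%, and against 1/2 only Anapc10 passed, being higher. The RING subunit Anapc11 had 70.8 and 88.6 CPM at 10 cycles, 291 and 247 at 18 cycles, and 120 and 105 for 1/8. Its log2 fold changes were 2.02 between cycles (adjusted p = 1.18e-04 from edgeR) and -1.46 in 1/8 (adjusted p = 4.75e-04 from edgeR). Anapc10 went the other way, from 25.4 and 23.7 CPM at 10 cycles to 4.31 and 2.34 at 18 cycles and 47.0 and 57.6 for 1/8, with log2 fold changes of -2.56 and 3.71. Of the SUMO and NEDD8 ligases and the cullin-RING core, 4 of 24 were higher and 8 lower between 18 and 10 cycles, beside the same 12.3% and 10.8%. In 1/8, 6 of them were higher and 2 lower than in whole oocytes, and 1 was higher and 2 lower than in 1/2. The SUMO ligase Pias4 had 270 and 262 CPM at 10 cycles, 850 and 741 at 18 cycles, and 402 and 202 for 1/8. The SCF adaptor Skp1a had 2664 and 2635 CPM at 10 cycles, 521 and 401 at 18 cycles, and 2028 and 2671 for 1/8, with log2 fold changes of -2.26 (adjusted p = 6.36e-05 from edgeR) and 2.16 (adjusted p = 1.93e-05 from edgeR). With ERCC size factors, 50 of the 70 genes of the lists were lower in 1/2, against 52.0% of all genes tested, 61 in 1/4, against 69.7%, and 69 in 1/8, against 87.5%, so that most genes of any kind were lower.

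Markers of the oocyte itself differed between the same libraries. All 9 GV oocyte markers were detected. Their summed level was 24188 and 21835 CPM at 10 cycles, 24106 and 25305 at 14 cycles, 7042 and 5861 at 18 cycles, 9089 and 8762 for 1/2, 12928 and 13861 for 1/4, and 19433 and 20047 for 1/8. Gdf9 was the most abundant of them over all libraries together. Ooep exceeded Gdf9 in replicate 1 of 1/2, with 2293 against 2225 CPM, and in replicate 2 of 1/8, with 4243 against 3535 CPM. All 11 granulosa and cumulus cell markers had at least 1 count in some library, with Nr5a2 the most abundant over all libraries together. Cyp11a1 exceeded it in replicate 1 at 10 cycles, with 66.6 against 46.2 CPM. In 1/8 Cyp19a1 exceeded Nr5a2, with 42.4 and 35.3 against 31.8 and 28.2 CPM. The summed level of the 11 markers was 199 and 87.4 CPM at 10 cycles, 113 and 164 at 14 cycles, 68.9 and 29.3 at 18 cycles, 34.8 and 32.8 for 1/2, 55.4 and 61.2 for 1/4, and 81.9 and 69.9 for 1/8. Of the 6 blood cell markers, Hbb-bt, Hba-a1 and Hba-a2 were at 0 in all libraries. The blood cell sum was 0.949 and 0.218 CPM at 10 cycles, 0.324 and 1.52 at 14 cycles, then 0.994 and 0 at 18 cycles, mostly of Alas2, and 0 in the fractions. The sum of the oocyte markers was thus lowest in the whole oocytes at 18 cycles, where Ube2c and Ube2s were highest, though Bmp15, Zp2 and Nlrp5 had lower means in 1/2, and the part of these markers in the results was not tested.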

How the data were processed

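The authors deposited raw HTSeq counts per gene and per ERCC molecule for 12 libraries, without deduplication. According to the methods, reads were trimmed with Cutadapt and mapped with STAR to GRCm38 plus the ERCC sequences. The share on no feature was 6.9% to 10.8%. CPM were computed from the counts on genes, which ranged from 1702062 to 13806199 per library. Changes were tested with edgeR 4.0.16 in R 4.3.3 (glmQLFit, glmQLFTest), in 1 fit of the 6 whole oocytes and 1 of the 8 libraries at 18 cycles. The fit was tested on simulated data. DESeq2 1.42.0, other filters and scalings, the replicate block and leaving out each library were alternatives.

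ERCC size factors were first computed by a median ratio that keeps molecules with zeros. After its calls were seen, it was replaced by the plain median ratio, the default of the tool named in the methods, partly because earlier results of these data had used it. The plan had not said how zeros are treated, and both are reported.

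Shared 32-base words were counted over annotated transcripts on both strands, since no genome was used here. The members and lists were chosen with earlier results of these data known. Named genes were 7 chosen by role, the 5 with the highest level per kb, those at 0, and per median ratio comparison up to 6 in each direction with the largest change among those past the threshold, with at least 50 normalized counts on average and no overlap between groups. From pathway lists up to 4 per direction could be named. Values of 2 of the genes counted here are not reported here. Intervals and floors cover counting error only.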

Additional observations from a re-analysis of the deposited data

How the results depend on the processing

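Between 18 and 10 cycles, ERCC size factors, chosen after seeing the data, gave 25 Ube2 genes called (25 higher, 0 lower). Of all genes tested, 47.6% were then higher and 0% lower. The log2 fold changes with these size factors were 0.84 for Ube2o and 1.01 for Ube2e3. Leaving out each library gave 4 to 11 called, 4 to 9 higher and 0 to 2 lower, with 4 without replicate 1 and 6 without replicate 2 at 10 cycles. With whole oocytes at 10 cycles as the reference, chosen after seeing the data, 8 were called in 1/2 (7 higher, 1 lower), 4 in 1/4 (4 higher, 0 lower) and 0 in 1/8 (0 higher, 0 lower). Of all 18041 genes, 9.3% were higher and 6.88% lower in 1/2, 5.82% and 4.17% in 1/4, and 0 in 1/8, so the 0 was that of all genes. The log2 fold changes in 1/8 then were 0.42 for Ube2s, 0.37 for Ube2j2 and 0.25 for Ube2c. In 1/4, DESeq2 and no filter each called 1. In 1/8, both called 2 higher, and leaving out each library gave 2 to 6 called, 0 to 1 higher and 2 to 6 lower, with 2 called without replicate 2 of 1/8. Between 1/8 and 1/2, DESeq2 and the fit of all 12 libraries each called 4, and leaving out each library gave 0 to 2, with 0 without any 1 library of these groups. The cause of these differences was not tested. For all fits without 1 library, here and below, no share over all genes is given. In 14 against 10 cycles, 1/2 and 1/4, leaving out each library gave 0 to 0.

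With ERCC size factors, leaving out each library gave 4 to 26 lower in 1/2, 23 to 31 in 1/4 and 29 to 31 in 1/8, with 4 without replicate 2 of 1/2 and 11 without replicate 1 of the whole oocytes. The median ratio that keeps zeros, run first and replaced with its calls known, gave 24, 29 and 31 in place of 24, 31 and 31. Of all genes tested it gave 50.1%, 66.8% and 87% lower in place of 52.0%, 69.7% and 87.5%.

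The fractions came from 2 oocytes and so share oocytes, but the labels give only a replicate number, and deviations of same-numbered fractions correlated between -0.11 and 0.08. With the replicate block, 11 Ube2 genes were called between 18 and 10 cycles, 7 in 1/8 and 3 between 1/8 and 1/2. The block added Ube2g1 between 18 and 10 cycles and Ube2j2 between 1/8 and 1/2. Shares over all genes with the block are not given. With 2 libraries per group and as few as 1702062 counts, small differences in genes of low abundance may have been missed. The size of difference that could be detected was not measured.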

Other observations

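Of the 6 genes in the count files with a Ube2 symbol that are not annotated as protein-coding, only the transcribed pseudogene Ube2d-ps (chromosome 11 from 5762129 to 5784710, plus strand) had more than 17 counts in a library. It had 16.9 and 15.9 CPM at 10 cycles, 14.6 and 22.7 at 14 cycles, 41.4 and 44.0 at 18 cycles, 31.8 and 33.9 for 1/2, 21.4 and 14.5 for 1/4, and 25.8 and 24.1 for 1/8. Ube2l3-ps1 and Ube2d4 had 0 counts in all 12 libraries. These levels carry no test.

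Both genes named next were chosen after their values were seen. Ube2ql1 had 21 counts in replicate 1 of 1/2 and at most 7 in each of the other 11 libraries. Inha, a granulosa cell gene, had 34.1 CPM in replicate 1 and 0.326 in replicate 2 at 10 cycles, and 3.64 CPM in replicate 1 and 31.9 in replicate 2 at 14 cycles, so oocytes of 1 group differed in this marker.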
